A study of Mus musculus with 38 samples.

Results

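The 200 PIWI-interacting RNAs (piRNAs) described here were detected in some mice and missed in many others. Small RNA was sequenced from the sperm of 38 male C57BL6/J mice, killed at 11 to 13 weeks of age, and the deposited counts list 637529 piRNA names with at least 1 genome-matched read in at least 1 mouse. A piRNA was taken as sporadic when it had 0 reads in 10 or more of the 38 mice. The 30 piRNAs with the highest mean reads per 1000000 genome-matched reads (RPM) were left out, and the 200 sporadic piRNAs with the highest mean were kept. Below the top 30, 634264 names met the limit of 10 mice and 3235 did not. The choice used the mean level and the number of mice without reads, so both are given here as a description.

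Dams received a control diet (CT, 20% protein) or a protein-restricted diet (PR, 8% protein) through pregnancy and until weaning at 21 days, and male offspring received CT or PR from weaning until death. The first 2 letters of a group name give the diet up to weaning and the last 2 the diet after it. There were 10 CTCT, 9 CTPR, 9 PRCT and 10 PRPR mice from 21 litters. In 17 of these litters, 8 from CT dams and 9 from PR dams, both post-weaning diets were sampled. Each library came from free-swimming sperm of 1 mouse collected from minced epididymis. Groups follow the labels of the deposited samples. For the littermates 47I1 (CTCT) and 47I2 (CTPR) the study's list of mice gives the opposite groups, and results were also computed that way.

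piRNAs are short RNAs that bind PIWI proteins of the germ line. They are cut from long precursor transcripts of genomic piRNA clusters, and they guide PIWI proteins to transposon transcripts and to other targets, which are then cleaved or silenced. In the mouse testis, a late population made during meiosis is very abundant and comes from a limited set of clusters, and part of it remains in mature sperm. A precursor can be cut at many positions, so a cluster yields many overlapping piRNAs with their own database names. piRNA names in these data carry running numbers, such as piR-mmu-14699910. No sequence or genome position came with the names, so none is shown.

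Genome-matched reads ranged from 4465281 to 7612603 per mouse, with a median of 6342719. Reads assigned to piRNA names varied more, from 58209 in 07C3 (CTCT) to 1619120 in 57P1 (CTPR). The names accounted for 59.5 to 78.9% of the total on the piRNA line of the counts. A count of 0 allows up to 3 reads, which was 0.394 to 0.672 RPM in these libraries and covers counting error only. Of 3 germ-line microRNAs used as a check of the tissue (mir-34b, mir-34c and mir-449a), 2 were found in every mouse, with a summed level between 17.3 and 1425 RPM. Red blood cell (mir-144 and mir-451a) and leukocyte microRNAs (mir-142a and mir-223) summed to at most 45.7 and 64.2 RPM, those of striated muscle to at most 477 RPM, and the liver's mir-122 was at 0 in 19 mice. Smooth muscle microRNAs (mir-143 and mir-145a) reached 62.3 to 8098 RPM, and the 5 epithelial microRNAs of the mir-200 family reached 34.2 to 2227 RPM, with all of both lists present in every mouse.

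A mouse either lacked a sporadic piRNA or, in most cases, held it well above the detection limit. The choice of the list favours this pattern. A name with 0 reads in 10 or more mice reaches a high mean only through high values in the others. Of 7600 values (200 piRNAs in 38 mice), 4349 were 0, which is 57.2%. The 3251 values above 0 had a median of 202 reads, 63.1% exceeded 100 reads and 11.6% lay between 1 and 10 reads. The highest value was 18731 reads of piR-mmu-21164964 in 57P1. Mean levels over the 38 mice lay between 18.4 and 133.1 RPM, with a median of 27.9 RPM. Mice without reads numbered 10 to 37 per piRNA (median 21.5), with 10 to 19 for 86 piRNAs, 20 to 29 for 74 piRNAs and 30 to 37 for 40 piRNAs. In 44 piRNAs, more than 50% of the RPM summed over all mice came from 1 mouse.

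**Figure D1:**
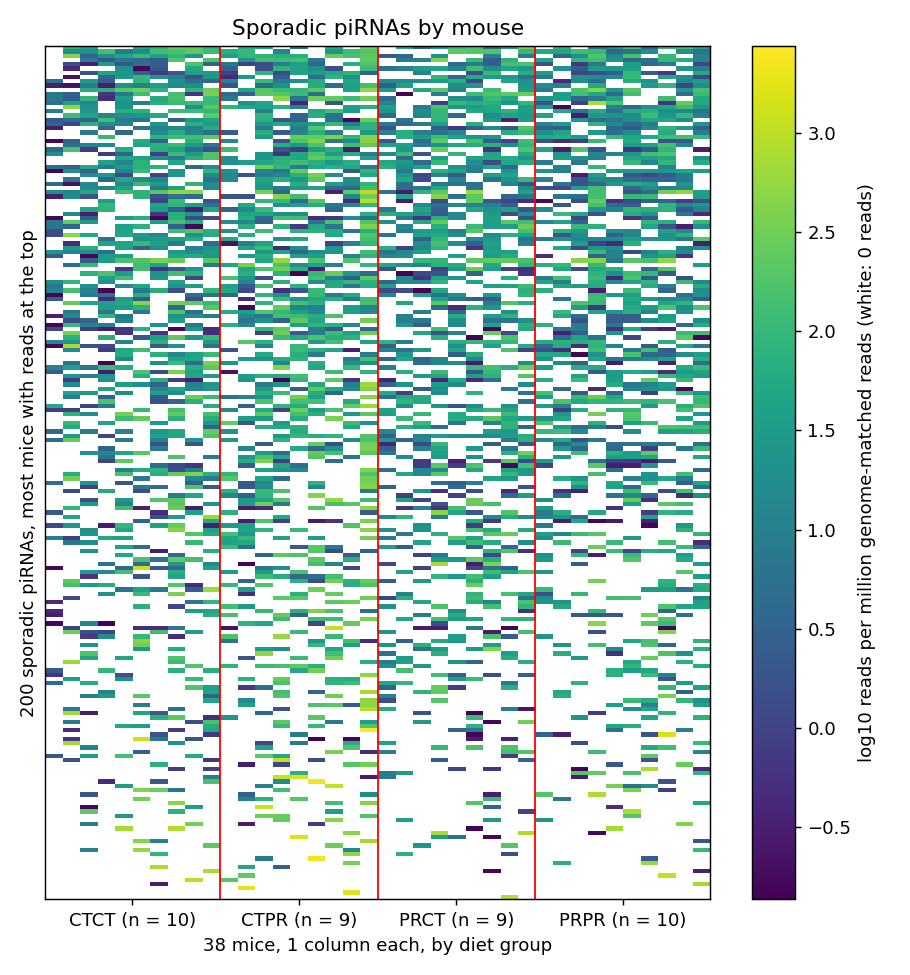
Level of each of the 200 sporadic piRNAs (rows, ordered by the number of mice with reads) in each of the 38 mice (columns, grouped by diet), as log10 RPM, with white for 0 reads. Gaps are spread over all 4 diet groups, and 57.2% of the cells are white.

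Every mouse held between 53 and 102 of the 200 sporadic piRNAs, with a median of 87.5. The lowest number belonged to 07C3, the mouse with the fewest piRNA reads, and the highest was shared by 57P1 and 45L1, both CTPR. Group medians were 82.0 in CTCT, 94.0 in CTPR, 88.0 in PRCT and 85.5 in PRPR, and the ranges overlapped (53 to 100, 60 to 102, 73 to 98 and 65 to 96). When every mouse was thinned to the 58209 piRNA reads of 07C3, the median was 80.5 and the range 53 to 98. Thinning can only remove reads, so it equalises depth between mice and cannot fill a gap. Requiring 5 reads in place of 1 gave a median of 82.0.

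**Figure D2:**
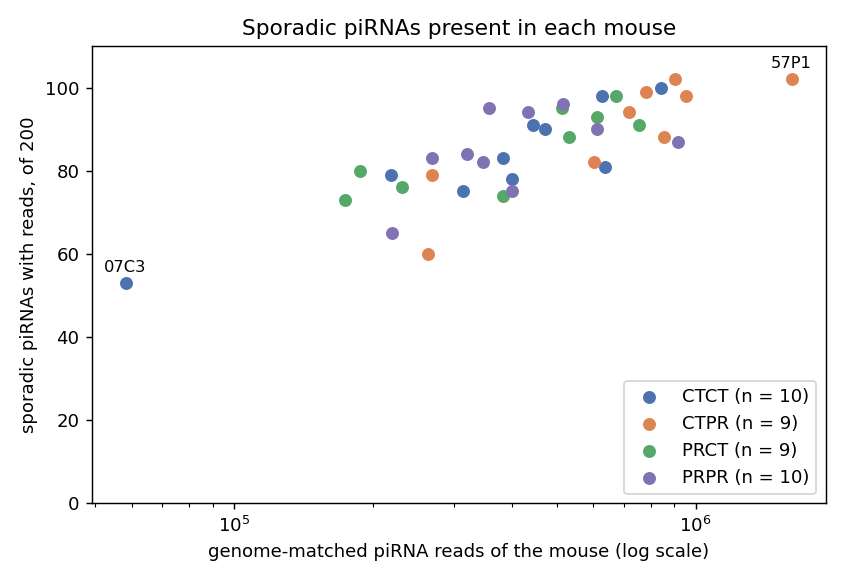
Number of the 200 sporadic piRNAs with at least 1 read (vertical axis) against the genome-matched piRNA reads of the mouse (horizontal axis, log scale), 1 point per mouse, coloured by diet group. Mouse 07C3 had 53 piRNAs from 58209 piRNA reads and 57P1 had 102 from 1619120.

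Together, the 200 piRNAs took 3.35 to 11.8% of a mouse's piRNA reads (median 7.67%), against 10.5 to 22% for the 30 most abundant piRNAs. Their summed level was 302 to 26083 RPM. Its median was 10112 RPM in CTPR, against 5847 RPM in CTCT, 5549 RPM in PRCT and 5189 RPM in PRPR, and the ranges overlapped. The piRNA class as a whole also stood higher in CTPR. Median reads in piRNA names were 782493 in CTPR, against 422223 in CTCT, 514171 in PRCT and 378543.5 in PRPR. As a share of piRNA reads, the 200 had medians of 9.78% in CTPR, 7.61% in CTCT, 6.99% in PRCT and 7.66% in PRPR. Most of the microRNA sums used as a check of the tissue stood higher in CTPR as well. Median sums of the germ-line, smooth muscle and epithelial microRNAs were 773, 2493 and 1044 RPM in CTPR and 314, 1457 and 525.5 RPM in CTCT. Those of leukocytes, striated muscle and liver were 29.1, 112 and 0.465 RPM in CTPR and 13.9, 91.9 and 0 RPM in CTCT. The red blood cell sum went the other way, with 5.34 RPM in CTPR and 6.19 RPM in CTCT. The part of these cell types in the piRNA values was not tested. Fewer cells of a type cannot be told apart from less RNA per cell in these bulk samples.

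The most abundant sporadic piRNA, piR-mmu-2819706, had a mean of 133.1 RPM and reads in 25 mice. Its values ran from 0 to 555 RPM in CTCT (median 66.2), from 0 to 941 RPM in CTPR (median 0.333), from 0 to 600 RPM in PRCT (median 6.09) and from 0 to 539 RPM in PRPR (median 3.01). All 4 groups thus held mice at 0 and a mouse at 539 RPM or more. piR-mmu-9033383 (mean 131.7 RPM, 23 mice) ranged from 0 to 586 RPM, the highest being in 45L1. piR-mmu-48533634 (mean 101.8 RPM, 27 mice) ranged from 0 to 544 RPM and piR-mmu-1194546 (mean 86.3 RPM, 26 mice) from 0 to 449.5 RPM, both highest in 57P1. piR-mmu-11975818 (22 mice) had its highest value, 442 RPM, in the CTCT mouse 45L3. For piR-mmu-14212200, piR-mmu-1162837 and piR-mmu-14212195, with means of 71.1, 66.1 and 66.0 RPM, reads were found in 28, 27 and 28 mice.

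The other 2 of the 10 most abundant owed their mean to very few mice. piR-mmu-21164964 was found in 8 mice, and 57P1 with 2744 RPM held 97.2% of its summed level, while the next highest mouse had 52.0 RPM. piR-mmu-13182555 was found in 6 mice, and 53M4 (CTPR) with 1646 RPM held 58.9% of its sum. A mean over mice therefore ranks the list by 2 different patterns, moderate levels in many mice and very high levels in 1 or a few.

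Most sporadic piRNAs belonged to series of adjacent names, and their gaps were often filled by other names of the series. Names with reads in any mouse were joined into a run wherever their numbers differed by 1, a grouping chosen after the data had been seen. The 200 piRNAs fell into 97 runs, of which 18 held a lone name and 79 held several, with a median of 6 names and at most 100. A further detected name stood 1 number away from 91.0% of the sporadic piRNAs, against 33.6% of all piRNA names, 98.5% of the first 200 names below the top 30 with 0 reads in fewer than 10 mice, and 90.0% of the next 200 sporadic names. In 35 runs there were 2 or more sporadic piRNAs, 138 in all.

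When reads were summed over a run, 36 runs with 126 of the 200 piRNAs had reads in all 38 mice, and 57 runs with 155 piRNAs had 0 reads in fewer than 10 mice. Of the 4349 values at 0, 3119 (71.7%) came from a mouse that had reads elsewhere in the same run. In those mice the run's median level was 242 RPM, and in mice with reads of the piRNA itself it was 238 RPM. The 2 medians cover different sets of values and are not a matched comparison. The first leaves out mice in which the run was also at 0. The second takes in the 18 lone names, whose run is the piRNA itself. The coefficient of variation over mice (SD divided by mean) had a median of 2.32 for the sporadic piRNAs and 1.43 for their runs, and was lower for the run than for the piRNA in 181 of 200 cases. It was 0.729 for the 30 most abundant piRNAs and 0.753 for the first 200 below them with 0 reads in fewer than 10 mice. Allowing gaps of up to 10 numbers within a run raised the 71.7% to 78.2%. The sums also take in names that were not chosen for their gaps. Of the 200, 95 shared a run with a name that had 0 reads in fewer than 10 mice, and 22 with a top 30 piRNA. A run therefore has fewer gaps than its sporadic names, and a lower variation is favoured, by the way the names were chosen and summed.

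**Figure D3:**
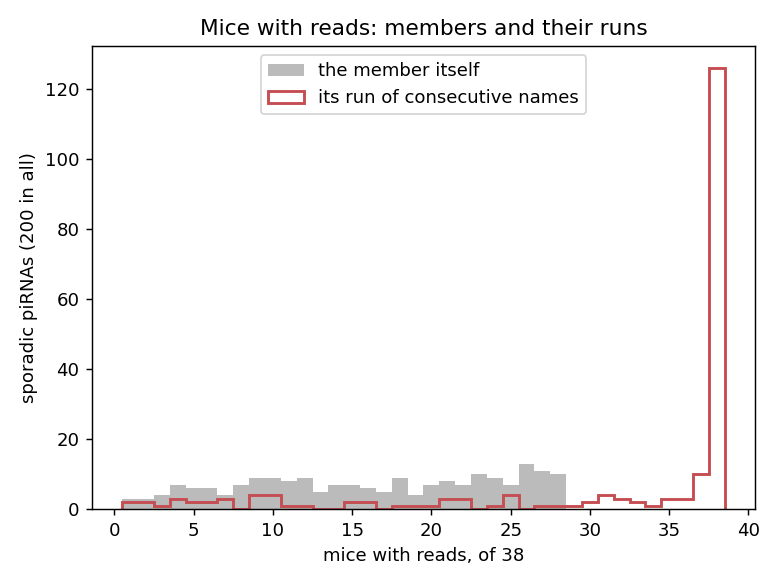
Number of sporadic piRNAs (vertical axis) by the number of mice with reads (horizontal axis, of 38), for the piRNA itself (grey bars, at most 28 by the choice of the list) and for the sum of its run of consecutive names (red outline). For 126 of the 200 piRNAs the run had reads in all 38 mice.

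The run from number 14699886 to 14699936 held 51 names and 16 of the sporadic piRNAs, more than any other, and is shown as the clearest case. Summed over its names, it had reads in every mouse, from 20.3 RPM in 07C3 to 1786 RPM in 45L1, with a median of 486 RPM. Each mouse held 6 to 22 of the 51 names (median 15.0). The name with the most reads in the run was not the same from mouse to mouse. In all, 19 names led in at least 1 mouse, no name led in more than 4 of the 38 mice, and the leading name took a median of 38% of the run's reads in its mouse. The 16 sporadic piRNAs made up 79.6% of the run's reads, so in this run they were its main content. The run from 6814962 to 6814988 differed. Its leading name, piR-mmu-6814978, was among the 30 most abundant piRNAs and led in all 38 mice, and its 2 sporadic piRNAs made up 8.12% of the reads.

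**Figure D4:**
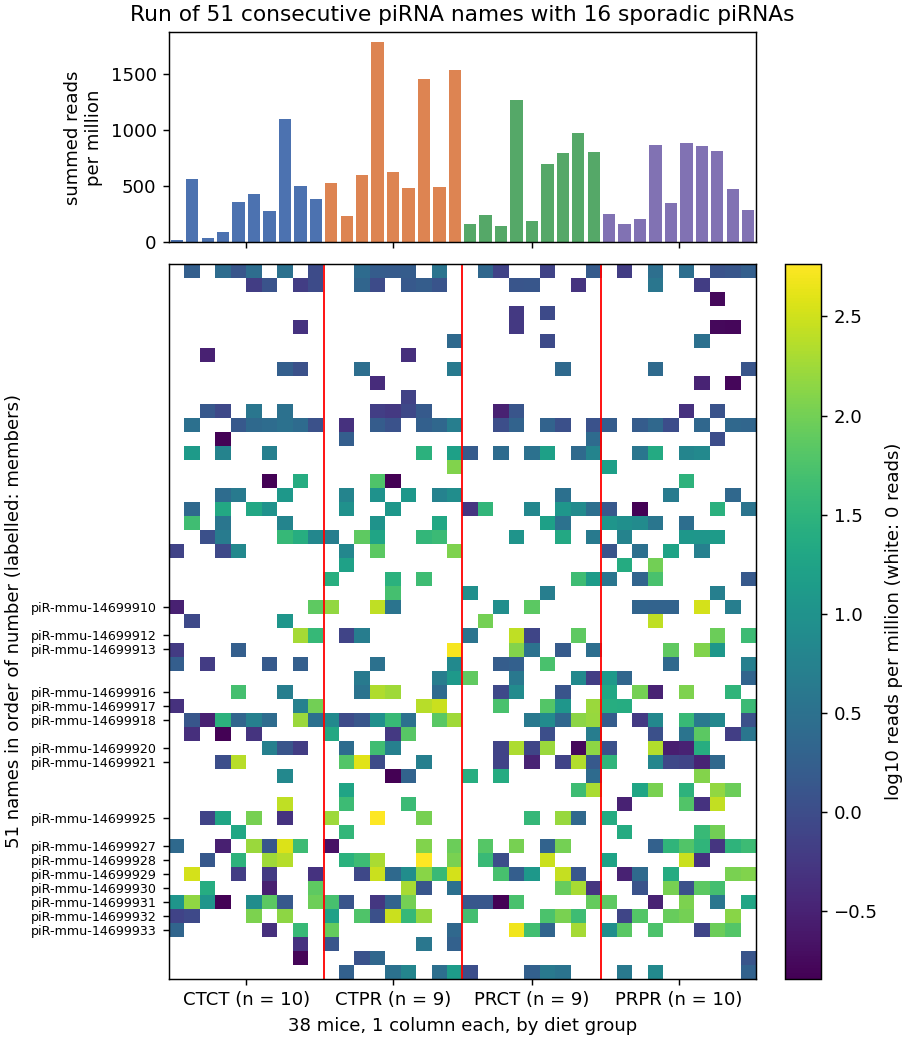
The run of 51 consecutive piRNA names that held 16 sporadic piRNAs, with its summed level per mouse in RPM above (bars coloured by diet group) and each name in each mouse below (log10 RPM, white for 0 reads, sporadic piRNAs labelled). Every mouse has reads in the run, from 20.3 to 1786 RPM, while the names that carry them change from mouse to mouse.

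Other runs had the same make-up. The run 15350821 to 15350868 (48 names, 12 sporadic piRNAs) had reads in 38 mice, a mean of 540 RPM and 16 leading names. The run 21164967 to 21165034 (68 names, 10 sporadic piRNAs) ranged from 4.80 RPM in 07C3 to 2922 RPM in 40H3 (PRPR), with 20 leading names. In the run 11975802 to 11975822 (21 names), 10 sporadic piRNAs made up 83.7% of the reads. Adjacent names did not replace each other strictly. Of 66 pairs of sporadic piRNAs whose numbers were 1 apart, the set of mice had a median Jaccard index (mice with both divided by mice with either) of 0.317, and 3 pairs were never found together. The median was 0.269 for pairs 2 to 5 numbers apart, 0.231 for 181 pairs further apart in a run, and 0.231 for 19512 pairs in different runs. These pairs share mice and libraries and are given as a description.

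Many sporadic piRNAs, among them most of the rarest, also had reads without a genome match. The pipeline counted reads that matched a piRNA but not the mm10 genome on separate lines. Of the 200 sporadic piRNAs, 102 had such unmatched reads, against 6.93% of all piRNA names. All names include many of far lower level, and the share among names of similar level was not computed. Unmatched reads of the sporadic piRNAs added up to 2194344, beside 1646142 matched reads. There were 23 sporadic piRNAs with matched reads in 1 to 5 mice. Of these, 20 had unmatched reads, and 15 had them in more mice than the matched reads, as did 39 of the other 177 sporadic piRNAs. The 23 were picked for few mice with matched reads, which by itself makes more mice with unmatched reads likelier. The 15 and the 39 are therefore given as a description only.

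piR-mmu-9524912, alone in its run, was matched to the genome in 1 mouse, 09H5 (CTPR), with 12655 reads or 2001 RPM. Unmatched reads of the same name were found in all 38 mice, 16442 in 09H5 and 3449 to 66415 in the other 37. piR-mmu-29442698 had 11554 matched reads in 49K3 (CTPR) and none elsewhere, beside 11596 unmatched reads in that mouse and 14 to 11679 in the others. piR-mmu-14074554 had 5406 matched reads in 51O1 (PRCT), beside 5437 unmatched reads there and unmatched reads in 34 other mice. These 3 were the piRNAs with matched reads in a lone mouse, and each was listed under the same name in 34 or more other mice without a genome match. Not all rare piRNAs had such reads. piR-mmu-13517112 had 5023 matched reads in 57P3 (CTCT), 1 and 2 reads in 2 other mice, and no unmatched reads. Over all 200 piRNAs, unmatched reads accompanied 18.4% of the values with matched reads and 25.5% of the values without.

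The first question of the design is whether the diets changed the level of these piRNAs. Read counts of all piRNAs were compared with edgeR's quasi-likelihood test, and P values were adjusted over the 8342 piRNAs that passed the filter on low counts, among them 146 of the 200. In CTPR against CTCT and in PRCT against CTCT, 0 sporadic piRNAs passed an adjusted P of 0.05, and 0% of all tested piRNAs did. In PRPR against CTCT, 2 sporadic piRNAs passed, both lower in PRPR, and 0.048% of all piRNAs tested were called (0.036% lower in PRPR). Both calls were lost with the older edgeR method (0 sporadic piRNAs, 0.012% of all), and on simulated counts the test used here called more unchanged piRNAs than its adjusted P allows. In PRPR against PRCT, 0 sporadic piRNAs passed, and 0.012% of all were called. At an unadjusted P under 0.05 there were 14, 17, 14 and 13 of the 146 sporadic piRNAs in these comparisons. Of all 8342 piRNAs tested there were 586, 341, 274 and 257 (7.02, 4.09, 3.28 and 3.08%). The share was larger among the sporadic piRNAs each time, a difference that was not tested. The list was chosen for a high mean with many zeros, and a member could pass the filter through a group in which it was high. The shares are therefore a description and not a result about diet. DESeq2, with the same library sizes, called 1, 2, 2 and 2 sporadic piRNAs, beside 0.144, 0.144, 0.144 and 0.0839% of all. The first 3 comparisons share the CTCT mice. The post-weaning effect differed between offspring of CT and PR dams for 0 of the 146 (edgeR interaction test, 0.012% of all called). An unadjusted P under 0.05 was reached by 19 of the 146, beside 378 of all 8342 (4.53%).

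Median log2 fold changes of the tested sporadic piRNAs were 1.09, -0.07, -0.03 and -0.06, beside 0.65, -0.18, -0.07 and 0.10 for all piRNAs tested. With total piRNA reads as library size the CTPR values became 0.27 and -0.03. A member could pass the filter through a group in which it was high, and these medians describe the piRNAs that passed.

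piR-mmu-51484245 was called lower in PRPR than in CTCT (edgeR adjusted P = 0.0201), but not by the older edgeR method. The 10 PRPR mice all had 0 reads. In CTCT, 5 mice had 0 reads and the others 1.19, 34.9, 41.7, 48.8 and 167 RPM. In CTPR, 4 mice had 0 reads and the others between 28 and 183 RPM, and in PRCT 8 of 9 mice had 3.13 to 66.5 RPM. Set against the limit of 3 reads per library, the mean of 29.4 ± 52.3 RPM (SD, n = 10) in CTCT was at least 60.5-fold higher than in PRPR, and at least 29.0-fold without 57P3, the highest CTCT mouse. PRCT, with 22.1 ± 20.2 RPM (SD, n = 9), was at least 45.6-fold higher than PRPR, with an adjusted P of 0.0509 by edgeR. The 60 names of its run had reads in all 10 PRPR mice, between 20.9 and 534 RPM (median 192 RPM), beside a median of 186 RPM in CTCT. The run thus did not share the gap of this name, and unmatched reads of piR-mmu-51484245 were also found in all 10 PRPR mice, 73 to 609 per mouse, and in all other mice.

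piR-mmu-21164989 was likewise absent from all 10 PRPR mice and called lower there than in CTCT (edgeR adjusted P = 0.0182), and its call was lost with the older method as well. In CTCT, 4 mice had 0 reads, 5 had between 0.155 and 41.5 RPM, and 45L3 had 1261 RPM. The mean, 131 ± 397 RPM (SD, n = 10), rests on that mouse. Without 45L3 it was 5.82 RPM, at least 12-fold above the limit in PRPR, and the piRNA then failed the filter on low counts. CTPR had 3 mice with reads, up to 21.6 RPM, and PRCT had 4, up to 6.33 RPM. In PRPR its run held 62.9 to 2922 RPM, with a median of 635 RPM beside 570 RPM in CTCT.

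piR-mmu-15350836 was absent from all 10 CTCT mice as labelled, a pattern that depends on the group of 47I2. In PRCT it had 0 reads in 3 mice and 36.0 to 141.04 RPM in 6. It was found at 116 to 401 RPM in 4 CTPR mice and at 192 RPM in 1 PRPR mouse. The mean level was at least 171-fold higher in CTPR than in CTCT (adjusted P = 0.0857, edgeR) and at least 103-fold higher in PRCT (adjusted P = 0.189). Neither passed the threshold. Mouse 47I2, labelled CTPR, had 121.6 RPM. In the study's list of mice it is a CTCT mouse, so 1 of 10 CTCT mice then has reads (mean 12.2 RPM) and these lower bounds no longer hold, with means of 70.8 RPM in CTPR and 50.7 RPM in PRCT. All 10 CTCT mice had reads in its run (22.8 to 982 RPM) and unmatched reads of the name itself (35 to 1365 reads).

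Other piRNAs with the smallest P in a comparison also had groups at or near 0. piR-mmu-3521000 had 0 reads in all 9 PRCT mice, while 5 CTCT mice had 2.77 to 647 RPM (adjusted P = 0.189, edgeR). piR-mmu-9239480 had 1.34 RPM in 1 CTCT mouse and 12.5 to 146 RPM in 4 PRPR mice (adjusted P = 0.175). piR-mmu-18153219, at 0 in all 9 PRCT mice, had 10.6 to 42.6 RPM in 3 PRPR mice (adjusted P = 0.327). None of these passed the threshold, and each had mice at 0 in both groups compared.

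**Figure D5:**
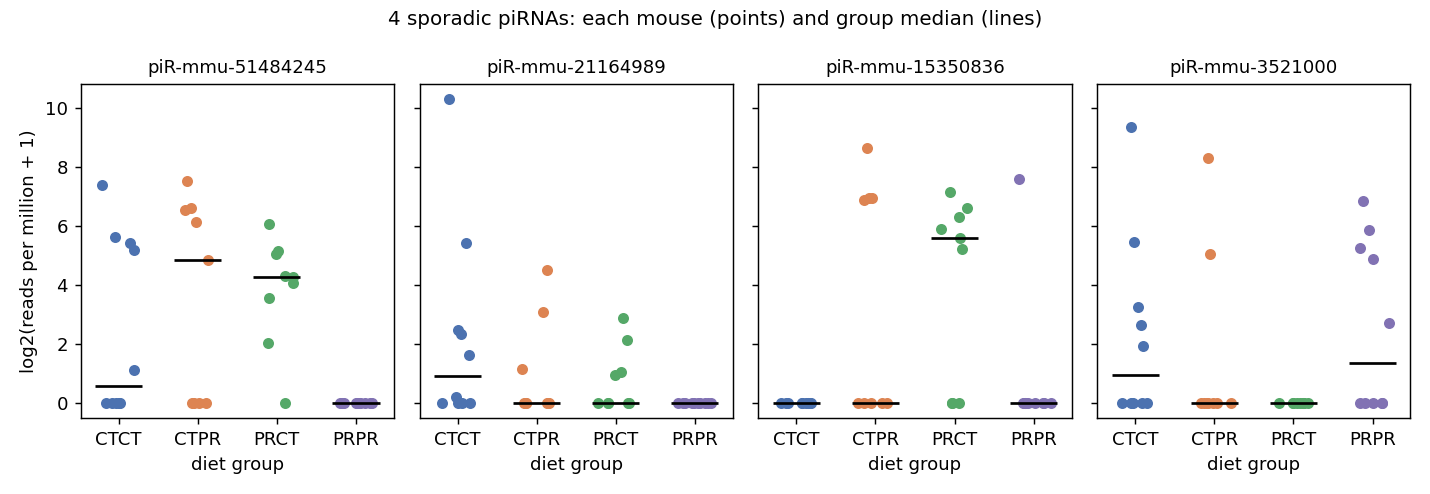
Level of 4 sporadic piRNAs in each mouse (points, log2 of RPM plus 1, spread sideways within a group) with the group median as a line, by diet group. piR-mmu-51484245 and piR-mmu-21164989 are at 0 in all 10 PRPR mice, piR-mmu-15350836 in all 10 mice labelled CTCT and piR-mmu-3521000 in all 9 PRCT mice, and every other group also contains mice at 0.

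With reads summed over runs, few runs with sporadic piRNAs were called between diets. Of 79 runs with sporadic piRNAs that passed the filter, 0, 0, 1 and 0 were called by edgeR in the 4 comparisons in the order above, where 0.26, 0, 0.0866 and 0% of all 4620 runs were called. The called run, 2868275 to 2868277, has 3 names. It was lower in PRPR (0 to 1.97 RPM) than in CTCT (0 to 74.5 RPM), with a log2 fold change of -5.45 ± 1.20 (SE) and an adjusted P of 0.0409, and its ranges overlapped. At an unadjusted P under 0.05 there were 21, 7, 6 and 8 of the 79 runs. Of all 4620 runs there were 897, 286, 213 and 162 (19.4, 6.19, 4.61 and 3.51%). In CTPR against CTCT both shares were larger than for single names (14 of 146 sporadic piRNAs and 7.02% of all). Runs were not compared between diets relative to total piRNA reads, which were higher in CTPR. The main name of the called run, piR-mmu-2868277, is the last but one of the 200 by mean level.

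The second question is whether a piRNA was present in more mice of a group. With Fisher's exact test, two-sided and adjusted over all 637529 names, 0 of the 200 sporadic piRNAs and 0% of all names passed in any of the 4 comparisons. The smallest P this test can give with 10 and 9 mice is 1.08e-05, which the adjustment over so many names turns into a value far above 0.05 unless many names reach it. At an unadjusted P under 0.05, 2, 3, 4 and 7 sporadic piRNAs were counted, beside 0.238, 0.125, 0.0569 and 0.131% of all names, and 2.44, 1.33, 0.622 and 1.4% of the 58372 names with reads in 5 to 33 mice. Most names are found in too few mice to reach such a P, so the second set of shares is the closer background.

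The largest contrast in presence was that of piR-mmu-51484245 in 0 of 10 PRPR and 8 of 9 PRCT mice (Fisher's exact test, unadjusted P = 0.000119, adjusted P = 1). In the opposite direction, piR-mmu-5755832 was present in 9 of 10 PRPR and 3 of 9 PRCT mice (exact P = 0.0198, adjusted P = 1). For PRPR against CTCT the extremes were piR-mmu-21164989, in 0 and 6 of 10 mice (exact P = 0.0108), and piR-mmu-6541320, in 10 and 5 of 10 mice (exact P = 0.0325). For PRCT against CTCT they were piR-mmu-15350836, in 6 of 9 and 0 of 10 mice (exact P = 0.0031), and piR-mmu-3521000, in 0 of 9 and 5 of 10 mice (exact P = 0.0325). For CTPR against CTCT they were piR-mmu-1889492, in 6 of 9 and 1 of 10 mice (exact P = 0.0198), and piR-mmu-40895702, in 4 of 9 and 9 of 10 mice (exact P = 0.0573). The adjusted P was 1 for each of them. With the opposite groups of 47I1 and 47I2, piR-mmu-15350836 was in 6 of 9 PRCT and 1 of 10 CTCT mice (exact P = 0.0198), piR-mmu-1889492 in 5 of 9 CTPR and 2 of 10 CTCT mice (exact P = 0.17), and CTCT mice with reads numbered 5 for piR-mmu-21164989 (exact P = 0.0325) and 4 for piR-mmu-6541320 (exact P = 0.0108). Which piRNAs are the extremes thus depends on litter 47I. With the opposite groups, piR-mmu-13543706 was in 3 of 10 PRPR and 10 of 10 CTCT mice (Fisher's exact P = 0.0031), a smaller P than that of piR-mmu-21164989. Presence of piR-mmu-6541320 in every PRPR mouse, at 7.03 to 219 RPM, went with overlapping levels in CTCT, where the highest mouse had 63.5 RPM.

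The third question is whether littermates shared the same sporadic piRNAs. They did so about as often as other mice. In 17 pairs of littermates, 30 to 57 sporadic piRNAs (median 47.0) were found in both mice, with a median Jaccard index of 0.372 (0.278 to 0.423). In the 163 pairs from different litters of the same dam diet and with the other post-weaning diet, the median was 0.338 (0.179 to 0.492), and 44.0 piRNAs were shared. Both mice were in the same state, present or absent, for a median of 59.0% of the 200 piRNAs in littermates and 58.5% in other pairs. For the 97 runs the median index was 0.762 in littermates and 0.778 in other pairs, where 36 runs with reads in all 38 mice count as shared in every pair. Pairs share mice and are not independent, so no test was made.

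A typical sporadic piRNA was found in 1 of 2 littermates more often than in both. Over the 17 litters, a sporadic piRNA was found in both mice of a median of 3.0 litters, in 1 mouse of 7.0 litters and in neither mouse of 6.0 litters. The choice of the list favours this order, since only 42.8% of all its values had reads. These counts are therefore given as a description only. Of the 200, 160 were in both mice of at least 1 litter, at most in 11. Of the 20 piRNAs with reads in 2 to 5 mice, 4 occurred in both mice of a litter. The edgeR test of litter terms in 34 mice called 0 of the sporadic piRNAs that passed the filter (72% of the 200), and 0% of the 8610 piRNAs tested in all. At an unadjusted P under 0.05 there were 23 of them, beside 3.37% of all. This share was larger among the sporadic piRNAs, even with the 23 set against all 200, a difference that was not tested. The list was chosen for a high mean with many zeros, so these shares are a description and not a result about litters. DESeq2's likelihood ratio test called 7 (4.86%), below the 6.96% of all piRNAs tested.

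The smallest P values between litters belonged to piR-mmu-11975821, piR-mmu-11380260, piR-mmu-15350836, piR-mmu-11675555 and piR-mmu-5467707 (edgeR, adjusted P = 0.890 for each). piR-mmu-11675555 had high values in both mice of some litters, such as 158 and 171 RPM in litter 35F and 96.7 and 174 RPM in litter 08G. It was absent from both mice of 6 litters and present in 1 mouse of 5. piR-mmu-11380260 was in both mice of 8 litters, but the littermates differed widely, with 898 and 1.78 RPM in litter 57P and 238 and 1.27 RPM in litter 39F.

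Sums over runs were called between litters where single names were not. Relative to genome-matched reads, 17 of 79 runs with sporadic piRNAs were called between litters by edgeR, beside 7.74% of all 4731 runs tested. With total piRNA reads as library size, 4 of 80 were called, beside 1.22% of all runs. Fewer runs were called without litter 02A, where 7 of 80 runs were called relative to genome-matched reads (3.97% of all runs) and 1 of 80 relative to total piRNA reads (0.43% of all runs), the run 9522081 to 9522093 (edgeR adjusted P = 0.0395 with litter 02A and 0.0419 without it). These tests were chosen after the data had been seen, and whether littermates were also processed together is not given in the sources used here, so litter and processing cannot be told apart.

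The run 1162779 to 1162878 (100 names, 1 of them, piR-mmu-1162837, sporadic in the sense used here) had the smallest P of the 4 (edgeR adjusted P = 0.00239), and without litter 02A its adjusted P was 0.159. Relative to total piRNA reads (reads per 1000000), its lowest values were 424 and 685, in the littermates 02A6 and 02A8, and its highest 22076 and 34385, in the littermates 35F1 and 35F2. In 08G3 and 08G5 it took 5507 and 4763, and in 39F5 and 39F6 14727 and 15639. Litters 02A and 35F lay outside the range of all other litters. Littermates differed by a median of 0.46 on the log2 scale and other pairs by 0.72. For the run 9033372 to 9033386, which holds piR-mmu-9033383 and 2 further sporadic piRNAs, the median difference was 0.51 between littermates and 0.88 between other pairs (edgeR adjusted P = 0.0421, and 0.269 without litter 02A).

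Some sporadic piRNAs occurred in similar sets of mice although their numbers lay far apart. Among the other 199, the set of mice most like that of piR-mmu-2819706 was that of piR-mmu-20002035 (Jaccard index 0.710, 22 mice with both, Spearman's rho of the levels 0.474 over 38 mice). For piR-mmu-9033383 it was that of piR-mmu-3156411 (0.700, rho 0.359) and for piR-mmu-48533634 that of piR-mmu-5768127 (0.688, rho 0.212). The next in each case were piR-mmu-5755834 (0.625), piR-mmu-15350866 (0.700) and piR-mmu-20002033 (0.667). All 6 had reads in 23 to 28 mice, so large overlaps arise by number alone, and names of a library share its depth. Each was picked as the most alike of 199. The overlap expected by chance was not computed, so these values are a description only.

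The limits of the list cut through a continuum. The last 2 sporadic piRNAs by mean, piR-mmu-2868277 and piR-mmu-36526922, had 18.43 and 18.36 RPM. The next 2 outside, piR-mmu-15350856 and piR-mmu-13983577, had 18.35 and 18.32 RPM. With 0 reads in exactly 10 mice, piR-mmu-14212200 and piR-mmu-14212195 were taken in, while piR-mmu-1162838 (152 RPM) and piR-mmu-21164982 (136 RPM), with 0 reads in 9 mice, were not. The top 30 also contained a sporadic name. piR-mmu-14081516, with a mean of 226 RPM and rank 23, had reads in 1 of 38 mice.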

How the data were processed

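Sperm small RNA libraries of 38 mice were analysed. The authors ran SPORTS, a small RNA annotation pipeline, against the mouse genome (mm10), and the deposited values are raw read counts of each name in each mouse, without normalisation. Database versions and the rule for naming a read are not given in the sources used here. The lines for piRNAdb piRNAs with a genome match were joined over mice, and a name without a line was counted as 0. Levels are reads per 1000000 genome-matched reads (RPM).

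Differences in read counts were assessed by edgeR 4.0.16, under R 4.3.3, (filterByExpr, estimateDisp, glmQLFit and glmQLFTest, 4 groups in 1 fit, genome-matched reads as library size), and presence (1 read or more) with Fisher's exact test in scipy 1.17.1. P values were adjusted by Benjamini-Hochberg over all piRNAs tested. Litter terms were tested in 34 mice with the post-weaning diet in the model. DESeq2 1.42.0 was an alternative. On simulated counts the edgeR diet test called more unchanged piRNAs than its adjusted P allows and missed many small changes.

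The piRNAs and lists were chosen with earlier results of these data known. Runs of consecutive names, the older edgeR method and the runs without litter 02A were chosen after seeing the data. Named piRNAs are the 10 of highest mean, those called or of smallest P in each direction of each comparison (counts and presence), the 5 of smallest P between litters, the 3 in fewest mice, those at the limits of the list, and for the 3 of highest mean the 2 most alike sets of mice. Others, such as piR-mmu-13517112, and runs were named after their values were seen.

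Litter comes from the mouse's identifier. Deviations from the group mean of log2(RPM + 1), over 3619 piRNAs in 28 or more mice, correlated at a median of 0.06 between littermates (-0.03 to 0.43, 6 of 17 pairs above 0.1) and -0.01 between other mice. The 162 pairs of mice within a group differed by more than sampling noise (chi-square per degree of freedom 22.8 to 82.2).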

Additional observations from a re-analysis of the deposited data

Results flagged for a closer look

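Within each diet group, the highest and the lowest mouse were compared with the rest by Dixon's test, for 4 summary measures per mouse and for the 10 most abundant sporadic piRNAs, 56 group checks in all. Chance flags about 1 in 20 groups, and the test assumes values without many zeros, which these piRNAs do not meet. It marked 16 of these checks, each at 1 mouse.

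Mouse 07C3 had fewer sporadic piRNAs (53) than the other CTCT mice. In CTPR, 57P1 stood above the rest in the summed level of all 200 (26083 RPM), and in piR-mmu-2819706 (941 RPM), piR-mmu-48533634 (544 RPM), piR-mmu-21164964 (2744 RPM) and piR-mmu-14212200 (292 RPM). In the same group, 45L1 stood apart in piR-mmu-9033383 (586 RPM). Among PRCT mice, 39F5 did so in piR-mmu-2819706 (600.5 RPM) and piR-mmu-21164964 (7.06 RPM), 14A4 in piR-mmu-13182555 (9.57 RPM) and 59L1 in piR-mmu-14212200 (365 RPM). Among PRPR mice, 40H3 was high in piR-mmu-48533634 (438 RPM). The test also marked 23F6 in piR-mmu-13182555, but its 0.298 RPM lay below the 0.447 RPM that a count of 0 allows in that mouse. In CTCT, 57P3 was high in piR-mmu-21164964 (52.0 RPM), piR-mmu-13182555 (8.72 RPM) and piR-mmu-1162837 (366 RPM).

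Reads that matched a sporadic piRNA but not the genome, which enter no comparison between groups, came to 2194344.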

How the results depend on the processing

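Numbers of sporadic piRNAs called depended on the tool and the filter. DESeq2 called 1, 2, 2 and 2 in CTPR, PRCT and PRPR against CTCT and in PRPR against PRCT, and 1, 3, 2 and 3 with its own size factors (0.0839 to 0.192% of all piRNAs tested). Without a filter on low counts edgeR called 39, 37, 37 and 39 (0.056, 0.038, 0.0409 and 0.04% of all names), and 180 of 200 between litters (0.125% of all names), and the cause was not tested. In PRPR against PRCT, 1 was called with total piRNA reads as library size and 1 with TMM factors. In PRPR against CTCT the older edgeR method called 0 (11 at an unadjusted P under 0.05) and sums over runs 1. Between litters, DESeq2's likelihood ratio test called 7, sums over runs 17, sums relative to total piRNA reads 4, and both without litter 02A 7 and 1, the runs having been chosen after seeing the data. With litter as a replicate block, edgeR called 0 of the 72 sporadic piRNAs tested in CTPR against CTCT and 0 of 74 in PRPR against PRCT, as it did on the same mice without the block. The exact McNemar test of the pairs also gave 0, but its smallest possible P, adjusted over all names, could not pass. In presence, all 30 alternatives gave 0, which says nothing of stability, since the smallest P these tests can give hardly passes the adjustment over so many names. In the read counts, the opposite grouping of litter 47I, leaving that litter out and leaving out 4 mice (07C3, 35F2, 31A3 and 08G5) kept 0 calls in 3 diet comparisons and 2 in PRPR against CTCT. Leaving out the mouse with the highest value tested 2 named results: the log2 fold change of piR-mmu-15350836 in CTPR against CTCT went from 12.06 to 11.14 and that of piR-mmu-3521000 in PRCT against CTCT from -11.80 to -8.37. In 5 others that mouse was in neither group compared, and for piR-mmu-21164989 no refit was possible. Both refitted results had 1 group at 0 in every mouse as labelled, so their fold changes are not measured ratios. That of piR-mmu-15350836 also depends on the group of 47I2. Of the 200, 146 passed the filter on low counts for the diet tests and fewer for the litter test, so the rest have no test of read counts.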
